A study of Mus musculus with 12 samples.

Results

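A set of 9 genes that move calcium and magnesium across the kidney tubule was followed in whole kidneys after toxin injury to podocytes. They are Trpv5, Calb1, S100g, Slc8a1, Trpm6, Pvalb, Casr, Cldn16 and Cldn19, chosen by symbol from the count table, and all 9 of the 9 passed the filter on low counts that left 19821 of 56722 genes for testing. In Pod-TRECK mice the receptor for diphtheria toxin is placed on podocytes, the epithelium of the glomerular filter, and the toxin injures these cells. All 12 mice were Pod-TRECK. Mice of 3 groups received 100 ng of diphtheria toxin intraperitoneally, and their kidneys were taken 5, 14 or 21 days later. Control mice received no treatment, so toxin and podocyte injury cannot be told apart from each other by the groups. Each group held 3 biological replicates, all under batch label 1, and the labels give no age, sex or strain background.

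Calcium is reclaimed across the cells of the distal convoluted and connecting tubules: it enters through a channel, is carried by binding proteins and leaves through an exchanger and a pump on the blood side. Magnesium enters the cells of the distal convoluted tubule through a channel of its own. Upstream, in the thick ascending limb, both ions pass between cells through pores made of claudins, under the control of a calcium-sensing receptor. Podocytes take no part in this transport.

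Library totals ran from 31023852 to 46420299 counts. Day-21 replicate 2 stood apart from its group. It lay at -36.8 on the first principal component, which held 66.2% of the variance, and replicates 1 and 3 of that group were at 73 and 80.1. Day-5 libraries were at -44.5, -39.8 and -37.4 and controls at -86, -92.6 and -95.8, so it lay nearest to day 5. The summed level of 8 podocyte markers, in CPM (counts scaled to a common library size with TMM factors), was 308.5 to 327.6 in controls, 92.81 to 113 at day 5 and 135 to 146.3 at day 14. At day 21 it was 124 and 101.9 in replicates 1 and 3 and 241.5 in replicate 2. The summed level of 10 tubular injury markers was 756.8 to 877.5 CPM in controls and 5194 to 8070 at day 5. It was 5503 in day-21 replicate 2, within the day-5 range, and 14610 and 13800 in the other day-21 libraries. Values without this library are given beside the results it touches. Day-14 replicates 1 and 2 were the closest pair of libraries, with a chi-square per degree of freedom of 4.901 against at least 12.62 for other pairs within groups, which is above sampling noise. They also shared skeletal muscle transcripts, described with Pvalb, and adipose markers (8 genes), which summed to 616.2 and 611.7 CPM there and to 50.19 in day-14 replicate 3. Adipose markers also varied elsewhere, from 28.6 to 460.8 CPM. The design text gives 3 biological replicates per group. Whether these 2 libraries came from separate mice was not tested, and calls that end when they are counted as 1 library are listed with the dependence on processing.

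Scaling moved all fold changes. TMM assumes that most genes keep their level. With library totals alone the all-gene median fold change (log2) was higher by 0.143 at day 5, by 0.728 at day 14 and by 0.485 at day 21, each against control, and by 0.585 at day 14 against day 5. It was lower by 0.247 at day 21 against day 14. Fold changes below are on the TMM scale unless library totals are named. They are log2 values with the standard error of an edgeR quasi-likelihood fit, with n = 3 per group. Levels in CPM and their overlap between groups are on the TMM scale too, unless library totals are named. A gene was said to rise or fall at an adjusted p (Benjamini-Hochberg over all genes tested) under 0.05.

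Trpv5, the channel through which calcium enters from the urine (ENSMUSG00000036899, GRCm39 chromosome 6, 41629107 to 41657703), rose. Its level was 21.4, 24.4 and 25.2 CPM in the controls and 27.3, 24.6 and 25.3 at day 5. It was 44.6, 42.9 and 63.1 CPM at day 14 and 64.8, 35.9 and 67.6 at day 21. Every day-14 and day-21 library lay above every control and day-5 library, and day-21 replicate 2 was the lowest of those 6. The log2 fold change against control was 0.12 ± 0.22 at day 5 (adjusted p = 0.757), 1.09 ± 0.22 at day 14 (adjusted p = 0.00156) and 1.25 ± 0.22 at day 21 (adjusted p = 0.00263). The rise at day 21 was 1.48 ± 0.14 without day-21 replicate 2. Between day 5 and day 14 Trpv5 rose by 0.96 ± 0.22 (adjusted p = 0.00455). From day 14 to day 21 the difference was 0.16 ± 0.22 (adjusted p = 0.638), and it was -0.04 under library totals. Without day-21 replicate 2 it was 0.40 ± 0.14 (adjusted p = 0.058).

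Calb1, the calcium-binding protein calbindin-D28k that carries calcium through the cell (ENSMUSG00000028222, chromosome 4, 15881264 to 15908064), fell. Controls held 461, 609 and 537 CPM, and day-5 libraries 290, 299 and 298. At day 14 the level was 174, 169 and 196 CPM, and at day 21 it was 336, 601 and 313. Day-5 and day-14 libraries lay below all controls, as did day-21 replicates 1 and 3, while day-21 replicate 2 lay within the control range. By library total, day-21 replicates 1 and 3 lay within the control range and replicate 2 above it. Calb1 fell by 0.86 ± 0.22 at day 5 (adjusted p = 0.0244) and by 1.58 ± 0.22 at day 14 (adjusted p = 0.000205). The day-5 call was lost on leaving out control replicate 2 or 3 or any of the 3 day-5 libraries (adjusted p = 0.0657 to 0.0823), and kept without day-21 replicate 2 (adjusted p = 4.83e-05). At day 21 the difference was -0.36 ± 0.22 (adjusted p = 0.197). It was -0.73 ± 0.11 without day-21 replicate 2 (adjusted p = 0.000113) and 0.06 under library totals. Calb1 fell by 0.72 ± 0.22 from day 5 to day 14 (adjusted p = 0.0187), a call lost under library totals (adjusted p = 0.404) and without day-14 replicate 1 or 2 (adjusted p = 0.0561 and 0.0628). It rose by 1.21 ± 0.22 from day 14 to day 21 (adjusted p = 0.00727), and by 0.85 ± 0.11 without day-21 replicate 2.

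S100g, the smaller binding protein calbindin-D9k (ENSMUSG00000040808, chromosome X, 161744988 to 161747595), had the largest fall of the 9 genes at day 14 apart from Pvalb, whose fall did not pass. Its level was 563, 533 and 598 CPM in controls and 483, 479 and 456 at day 5. It was 85.1, 84.0 and 108 CPM at day 14, a mean of 16.4% of the control mean, and 271, 538 and 313 at day 21. All day-5 libraries lay below all controls and all day-14 libraries below all others, while day-21 replicate 2 lay within the control range. By library total day 5 overlapped the controls, at 407.3 to 420.1 CPM against 414.5 to 479.5. The log2 fold change was -0.26 ± 0.22 at day 5 (adjusted p = 0.484), and -0.11 under library totals (adjusted p = 0.662). It passed in a fit of only the 6 libraries compared (adjusted p = 0.00924). S100g fell by 2.61 ± 0.23 at day 14 (adjusted p = 1.52e-05), and by 1.88 ± 0.15 under library totals. It rose again by 2.02 ± 0.23 from day 14 to day 21 (adjusted p = 0.000872). At day 21 it was lower than control by -0.59 ± 0.22 (adjusted p = 0.0485). That call was lost on leaving out any library other than day-21 replicate 2 (adjusted p = 0.0549 to 0.157). It was also lost under library totals (adjusted p = 0.317) and in a fit of only the 6 libraries compared (adjusted p = 0.17). Without day-21 replicate 2 the change was -0.96 ± 0.11 (adjusted p = 1.85e-05). S100g overlaps Ctps2 on the other strand, whose counts came to 10.2% of those of S100g over all libraries. The strand setting of the counting is not given, so reads of the 2 genes may be shared.

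Slc8a1, the sodium-calcium exchanger NCX1 that passes calcium out to the blood side (ENSMUSG00000054640, chromosome 17, 81680534 to 82045806), was lowest at day 5. Controls held 148, 188 and 179 CPM and day-5 libraries 68.8, 71.0 and 70.7. The level was 105, 98.7 and 118 CPM at day 14 and 146, 168 and 121 at day 21. All day-14 libraries lay between the day-5 and control libraries, and the day-21 range overlapped the control range. By library total the day-14 range overlapped the control range as well. Slc8a1 fell by 1.29 ± 0.13 at day 5 (adjusted p = 0.000156), and by 1.15 ± 0.11 under library totals. It fell by 0.68 ± 0.13 against control at day 14 (adjusted p = 0.00121), but the value was 0.05 ± 0.11 under library totals (adjusted p = 0.711). Between day 5 and day 14 it rose by 0.61 ± 0.13 (adjusted p = 0.00364), and by 1.19 ± 0.11 under library totals. At day 21 the difference from control was -0.25 ± 0.13 (adjusted p = 0.149). It was -0.37 ± 0.11 without day-21 replicate 2 (adjusted p = 0.0143) and 0.21 under library totals. The rise from day 14 to day 21, 0.44 ± 0.13 (adjusted p = 0.0481), was lost on leaving out any library other than day-21 replicate 3 (adjusted p = 0.0533 to 0.168, and 0.0589 without day-21 replicate 2).

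Trpm6, the channel for magnesium entry in the distal convoluted tubule (ENSMUSG00000024727, chromosome 19, 18727347 to 18869875), was low and varied most among controls. Its level was 12.8, 26.3 and 18.6 CPM in controls, 10.6, 12.3 and 9.94 at day 5, 9.16, 8.30 and 10.3 at day 14 and 15.8, 18.9 and 11.2 at day 21. All day-5 and day-14 libraries lay below all controls, while day 21 overlapped them. By library total, days 5 and 14 overlapped the controls as well. Trpm6 fell by 1.05 ± 0.25 at day 14 (adjusted p = 0.0039). Under library totals the change was -0.32 (adjusted p = 0.198), so the call rests on the scaling. The day-5 fall, 0.81 ± 0.25, passed by a margin lost in rounding (adjusted p = 0.05). It did not pass under library totals (adjusted p = 0.0731), and without control replicate 2 it came to -0.56 (adjusted p = 0.155). Leaving out control replicate 3, any day-5 or day-14 library or day-21 replicate 1 also lost it (adjusted p = 0.0584 to 0.159). With the replicate number as a block its adjusted p was 0.0533, and without day-21 replicate 2 it was 0.0159. At day 21 the difference was -0.33 ± 0.25 (adjusted p = 0.29), and it was 0.12 under library totals. From day 5 to day 14 it was -0.24 ± 0.25 (adjusted p = 0.436) and 0.35 under library totals.

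Pvalb, the calcium-binding protein parvalbumin (ENSMUSG00000005716, chromosome 15, 78075314 to 78090600), marks the early distal convoluted tubule in the mouse kidney and is also abundant in fast skeletal muscle. Its counts were 523, 571 and 616 in controls and 128, 124 and 107 at day 5. They were 86, 90 and 0 at day 14 and 0, 449 and 1 at day 21. The 2 libraries at 0, day-14 replicate 3 and day-21 replicate 1, allow up to 0.096 and 0.0863 CPM by library total, the level of 3 counts, against a control mean of 13.7. The day-21 value near the controls was that of replicate 2, which stood apart on other measures as well. Such floors cover counting error only, since the reads carry no molecular identifiers.

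Skeletal muscle transcripts moved with Pvalb within the day-14 group. Over 12 muscle markers, day-14 replicates 1 and 2 held 3258 and 2313 counts, and the other 10 libraries held 34 to 105. The summed level of these markers was 62.8 and 56.8 CPM in those libraries and 1.02 to 3.05 CPM in the others. Myh4, a fast myosin heavy chain, had 1290, 861 and 0 counts in day-14 replicates 1, 2 and 3, and Ckm, the muscle creatine kinase, had 418, 300 and 0. Of the 12 markers 1, 0 and 5 were at 0 in these 3 libraries. In day-14 replicate 3, which had muscle markers at the level of the other groups, Pvalb had no count. The part of muscle RNA in the Pvalb counts of day-14 replicates 1 and 2 was not tested. At day 5 the markers summed to 1.88 to 2.03 CPM, against 1.02 to 1.73 in controls, so the Pvalb counts of 107 to 128 there stood beside no such excess.

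Pvalb was lower in every day-5 library than in every control, at a mean of 3.42 ± 0.82 CPM (SD, n = 3) against 17.2 ± 1.76. Its log2 fold change was -2.34 ± 1.45 at day 5 (adjusted p = 0.322), -3.73 ± 1.55 at day 14 (adjusted p = 0.0572) and -1.87 ± 1.42 at day 21 (adjusted p = 0.298). None passed in this fit. With limma-voom on the same 12 libraries it passed at day 14 (adjusted p = 0.0101) and day 21 (adjusted p = 0.0171), and with no filter on low counts it passed at day 14 (adjusted p = 0.0462). Leaving out day-21 replicate 1 or 3 also brought day 14 past the threshold (adjusted p = 0.0265 and 0.0274). In fits of only the 6 libraries compared, Pvalb passed at day 5 (-2.35, adjusted p = 2.96e-05) and day 14 (-3.75, adjusted p = 0.000884), but not at day 21. Without day-21 replicate 2 the standard errors were smaller, and Pvalb fell by 2.34 ± 0.57 at day 5 (adjusted p = 0.00837) and by 3.73 ± 0.62 at day 14 (adjusted p = 0.000214), the latter including the libraries with muscle transcripts. Day 21 then also passed (adjusted p = 4.71e-05). It is given as counts of 0 and 1 against 523 to 616 in controls, since the fitted fold depends on the prior count.

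Casr, the calcium-sensing receptor of the thick ascending limb (ENSMUSG00000051980, chromosome 16, 36314058 to 36382503), had the smallest standard errors of the 9 genes. Its level was 72.2, 75.0 and 78.5 CPM in controls, 59.3, 56.9 and 58.3 at day 5, 38.5, 35.3 and 37.3 at day 14 and 46.9, 46.4 and 45.6 at day 21. On this scale the 4 groups did not overlap, and day-21 replicate 2 lay between its replicates. By library total the toxin groups overlapped, at 49.9 to 52.1 CPM at day 5 and 46.4 to 50.5 at day 14. The day-21 values were then 55.7, 41.2 and 56.8, with replicate 2 the lowest. Casr fell by 0.37 ± 0.06 at day 5 (adjusted p = 0.00314), by 1.02 ± 0.06 at day 14 (adjusted p = 2.61e-06) and by 0.70 ± 0.06 at day 21 (adjusted p = 0.000132). Under library totals the 3 values were -0.23 (adjusted p = 0.22), -0.29 (adjusted p = 0.0359) and -0.22 (adjusted p = 0.114), so the size of the fall rests on the scaling and day 5 and day 21 did not pass. From day 5 to day 14 it fell by 0.65 ± 0.06 (adjusted p = 6e-05), and the value was -0.07 under library totals (adjusted p = 0.621). From day 14 to day 21 it rose by 0.32 ± 0.06 (adjusted p = 0.0105). That value was 0.07 under library totals (adjusted p = 0.68) and 0.29 without day-14 replicate 2 (adjusted p = 0.0639).

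Cldn16 and Cldn19 encode claudins that form the paracellular pore for calcium and magnesium in the thick ascending limb. Cldn16 (ENSMUSG00000038148, chromosome 16, 26281885 to 26301515) was at 7.89, 7.62 and 7.84 CPM in controls and 8.35, 7.75 and 8.04 at day 5. It was at 11.1, 11.7 and 11.2 CPM at day 14 and 17.9, 8.60 and 23.1 at day 21. The day-14 and day-21 libraries all lay above all controls, with day-21 replicate 2 below the day-14 libraries. Cldn16 rose by 1.09 ± 0.26 at day 21 (adjusted p = 0.00963), and by 1.39 ± 0.11 without day-21 replicate 2. In a fit of only the 6 libraries compared, the day-21 call was lost (adjusted p = 0.0759). At day 14 the difference was 0.54 ± 0.26 (adjusted p = 0.0951). It was 0.53 ± 0.10 without day-21 replicate 2 (adjusted p = 0.000466) and 1.27 ± 0.34 under library totals (adjusted p = 0.00556). In a fit of only the 6 libraries compared it was 0.51 (adjusted p = 0.000357). At day 5 it was 0.05 ± 0.26 (adjusted p = 0.932), and -0.01 without control replicate 2.

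Cldn19 (ENSMUSG00000066058, chromosome 4, 119112611 to 119119635) was at 23.3, 20.2 and 23.2 CPM in controls, 15.9, 16.9 and 19.2 at day 5, 25.1, 25.9 and 25.2 at day 14 and 53.4, 34.3 and 49.2 at day 21. The groups did not overlap on this scale, and day-21 replicate 2 was again the lowest of its group. By library total day 5 overlapped the controls and day 21 overlapped day 14. Cldn19 rose by 1.04 ± 0.14 at day 21 (adjusted p = 0.000946), and by 1.2 ± 0.09 without day-21 replicate 2. At day 5 its log2 fold change was -0.36 ± 0.15 (adjusted p = 0.127). It passed without day-21 replicate 2 (adjusted p = 0.00644) and in a fit of only the 6 libraries compared (adjusted p = 0.0135). At day 14 it was 0.19 ± 0.14 (adjusted p = 0.266), and 0.92 ± 0.22 under library totals (adjusted p = 0.00312). It rose by 0.55 ± 0.14 from day 5 to day 14 (adjusted p = 0.00925) and by 0.84 ± 0.14 from day 14 to day 21 (adjusted p = 0.0054), the latter not passing under library totals (adjusted p = 0.0732). Gm12927 overlaps Cldn19 on the other strand, with counts at 2.16% of those of Cldn19.

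**Figure D1:**
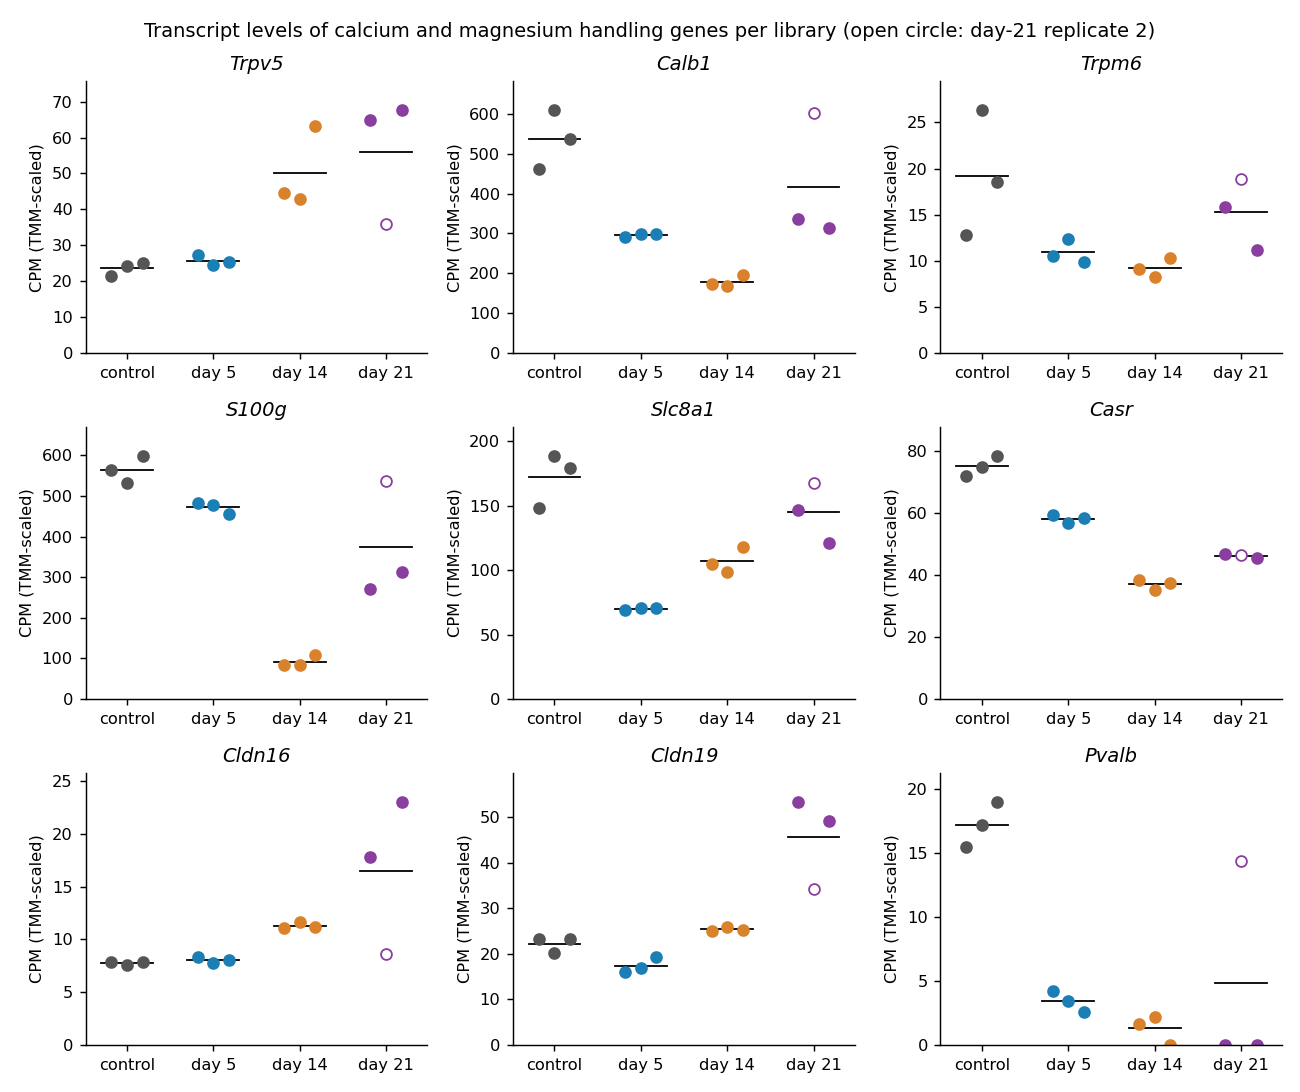
Levels of the 9 genes in CPM scaled by TMM factors (linear y axis from 0) in the 12 libraries of the 4 groups; each point is 1 library, the line is the group mean and the open circle is day-21 replicate 2. Casr falls to 35.3 to 38.5 CPM at day 14, while Trpv5 rises to 42.9 to 63.1, and both directions hold under library totals.

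Called members were counted against the share of all genes called. At day 5 against control 0 members rose and 4 fell, where 9.77% of all genes tested rose and 5.09% fell. Leaving out day-21 replicate 2 gave 0 and 6, against 17.4% and 14.9%. At day 14, 1 rose and 5 fell, where 31.2% of genes rose and 28.8% fell, and leaving out day-21 replicate 2 gave 2 and 6, against 34.7% and 30.9%. At day 21, 3 rose and 2 fell, where 24.3% rose and 18.5% fell. Leaving out day-21 replicate 2 gave 3 and 5, against 33.2% and 28.4%. The median log2 fold change of the 9 was -0.37, -1.02 and -0.33 at days 5, 14 and 21, beside 0.00, 0.08 and 0.07 for all genes. Under library totals 0 rose and 2 fell at day 5, where 9.68% of genes rose and 2.78% fell. At day 14 it was 3 and 3, where 66.4% rose and 11.2% fell, and at day 21 it was 3 and 0, where 55.7% rose and 7.38% fell. The member medians were then -0.23, -0.29 and 0.12, beside 0.15, 0.81 and 0.55 for all genes, so the day-21 median changed sign.

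Between day 5 and day 14, 3 members rose and 3 fell, where 24.7% of genes rose and 26.1% fell. Leaving out day-21 replicate 2 gave 4 and 3, against 29.5% and 30.1%. Under library totals it was 4 and 1, where 58.2% of genes rose and 9.42% fell, with S100g the member that fell. From day 14 to day 21, 5 rose and 0 fell, where 7.03% rose and 7.57% fell. The 5 were Calb1, S100g, Slc8a1, Casr and Cldn19. Leaving out day-21 replicate 2 gave 5 and 1, against 12.5% and 11.4%, with Cldn16 rising in place of Slc8a1 and Pvalb falling. That Pvalb call set 86, 90 and 0 counts at day 14 against 0 and 1 at day 21. Only the day-14 libraries with muscle transcripts held Pvalb counts, and the part of muscle RNA in them was not tested. Under library totals only Calb1 and S100g of the 9 passed from day 14 to day 21, both rising, where 2.58% rose and 13.7% fell. In a fit of only the 6 libraries compared, S100g alone passed (adjusted p = 0.0402), and the calls of Calb1 (adjusted p = 0.0973), Casr (adjusted p = 0.124), Cldn19 (adjusted p = 0.0708) and Slc8a1 (adjusted p = 0.19) were lost. These comparisons share groups, so their calls are not independent of each other. Of all called genes, the share that rose was 65.7%, 52.1% and 56.8% at days 5, 14 and 21 against control, and 77.7%, 85.6% and 88.3% under library totals. It was 48.6% for day 14 against day 5 and 48.2% for day 21 against day 14, and 86.1% and 15.8% under library totals.

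**Figure D2:**
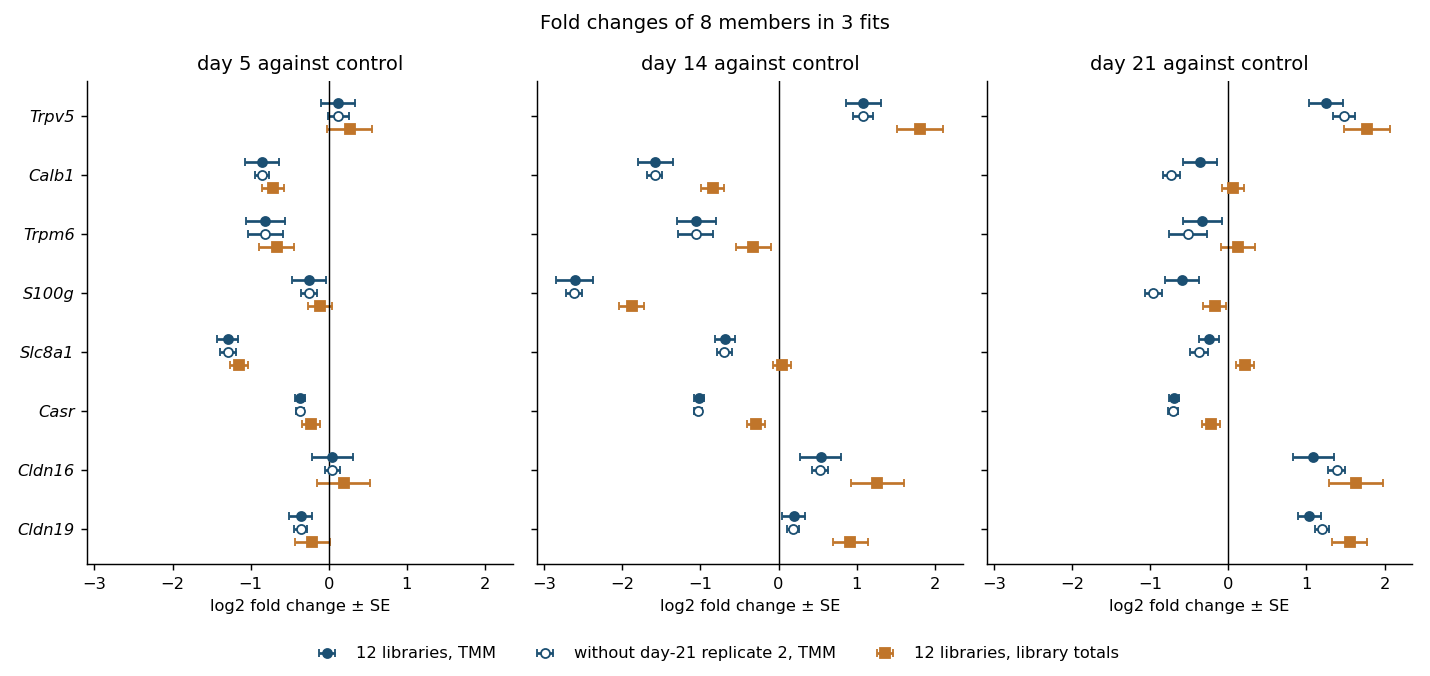
Log2 fold changes against control (x axis, with standard errors) of 8 genes at days 5, 14 and 21 with all 12 libraries, without day-21 replicate 2, and with library totals in place of TMM. Slc8a1 at day 14 moves from -0.68 to 0.05 under library totals, and Calb1, Trpm6 and Slc8a1 at day 21 also change sign, while S100g stays at -1.88 at day 14; Pvalb is left out because of its counts of 0.

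Levels between genes were compared per length, as TMM-scaled CPM per kilobase. In controls S100g was highest at 1116 ± 65.1 (SD, n = 3), followed by Calb1 at 89.5 ± 12.4 and Pvalb at 16.6 ± 1.69. Slc8a1 at 8.05 and Casr at 7.87 overlapped, and Cldn16 at 6.64, Cldn19 at 5.22, Trpv5 at 4.15 and Trpm6 at 2.46 followed with no overlap between neighbours. At day 14 S100g and Calb1 were still the highest, at 183 ± 27.1 and 30.0 ± 2.41 per kilobase. Cldn16 at 9.64 and Trpv5 at 8.82 came next and overlapped, above Cldn19 at 5.97, Slc8a1 at 5.01 and Casr at 3.88. Pvalb at 1.24 and Trpm6 at 1.18 were lowest and overlapped. Trpv5 thus lay above Slc8a1 and Casr at day 14 and below both in controls.

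Count ratios within a library do not depend on the scaling. The pairs were chosen after the values had been seen, and with 3 against 3 libraries a two-sided exact permutation test cannot go below p = 0.1. Trpv5 counts per 100 Calb1 counts were 4.63, 4.01 and 4.69 in controls, 9.41, 8.24 and 8.49 at day 5, 25.7, 25.4 and 32.2 at day 14 and 19.3, 5.97 and 21.6 at day 21. The entry channel thus stood higher against its binding protein in every toxin library than in every control (exact permutation p = 0.1 for each day). Slc8a1 per 100 Calb1 was 32.1 ± 1.18 in controls (SD, n = 3), 23.7 ± 0.0191 at day 5 and 59.5 ± 0.942 at day 14, with no overlap at either day. At day 21 it was 43.6, 27.9 and 38.5, on both sides of the controls.

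Slc12a3, the sodium-chloride cotransporter, defines the distal convoluted tubule. Trpv5 per 100 Slc12a3 was 3.77, 3.81 and 4.03 in controls, 5.92, 5.81 and 6.20 at day 5 and 32.0, 30.7 and 29.9 at day 14. It was 23.7, 6.47 and 33.6 at day 21, all above controls. S100g per 100 Slc12a3 was 92.8 ± 8.61 in controls (SD, n = 3) and 57.6 ± 5.40 at day 14, lower without overlap. It was 110 ± 4.36 at day 5, higher than controls without overlap, and 117 ± 33.4 at day 21, overlapping them. Each of these ratios was compared with controls by the same exact test, with p = 0.1 where groups did not overlap. Calb1 per 100 Slc12a3 was 87.4 ± 6.86 in controls and 68.8 ± 5.24 at day 5, lower without overlap. It was 113 ± 17.4 at day 14, overlapping controls, and 129 ± 24.4 at day 21, higher without overlap. Trpm6 per 100 Slc12a3 was 3.11 ± 0.93 in controls and 5.81 ± 0.85 at day 14, higher without overlap, while its TMM-scaled level was lower.

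Slc12a1, the sodium-potassium-chloride cotransporter, defines the thick ascending limb. Cldn16 per 100 Slc12a1 was 0.603, 0.689 and 0.605 in controls, 1.21, 1.07 and 0.968 at day 5, 3.01, 3.31 and 3.97 at day 14 and 2.92, 0.830 and 3.37 at day 21. Cldn19 per 100 Slc12a1 was 1.78, 1.83 and 1.79 in controls, 2.31, 2.33 and 2.31 at day 5, 6.83, 7.37 and 8.94 at day 14 and 8.72, 3.30 and 7.20 at day 21. Both claudins stood higher against Slc12a1 in all 9 toxin libraries than in all controls. Casr per 100 Slc12a1 was 6.12 ± 0.64 in controls (SD, n = 3), 7.84 ± 0.80 at day 5 and 11.2 ± 1.74 at day 14, and at day 21 it was 6.27 ± 1.63, overlapping controls (exact permutation p = 1). A ratio shows unequal change of its 2 transcripts and does not say which of them moved.

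**Figure D3:**
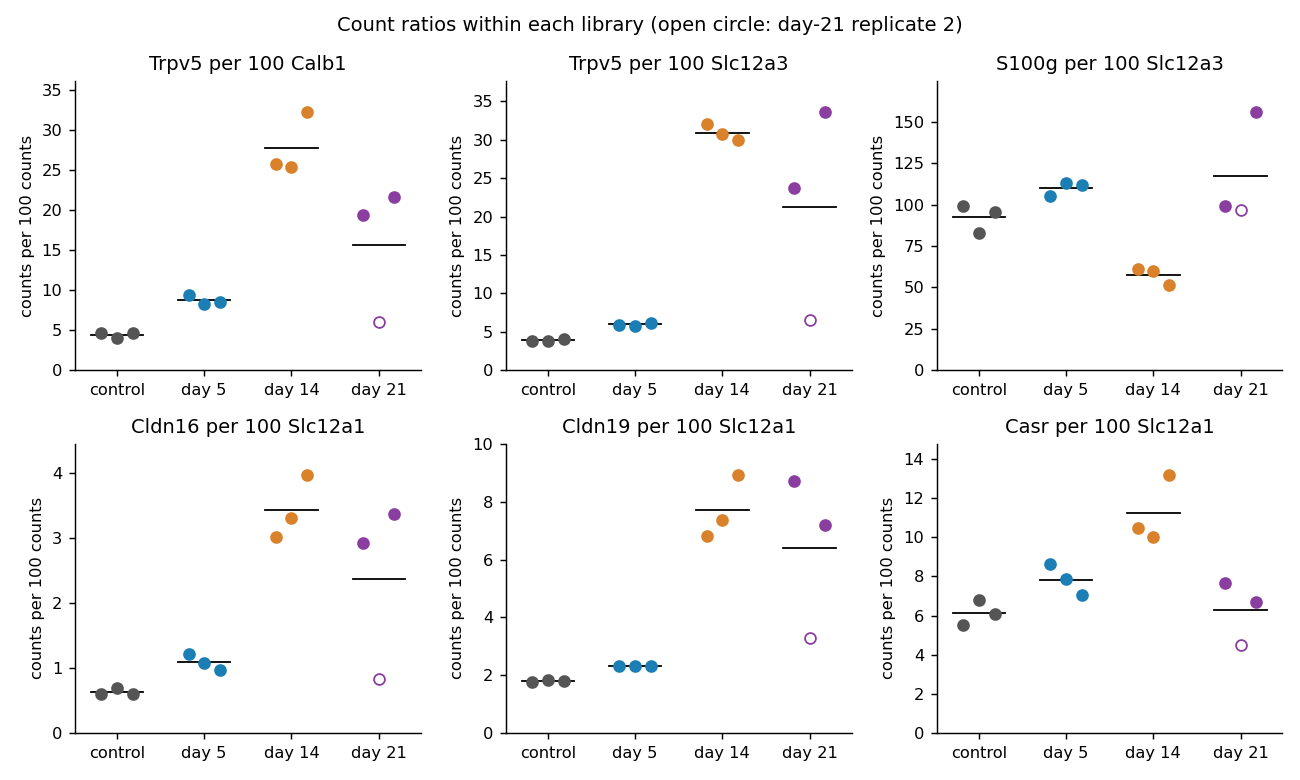
Counts of 1 gene per 100 counts of another within each of the 12 libraries (linear y axis from 0); points are libraries, lines are group means and the open circle is day-21 replicate 2. Trpv5 per 100 Slc12a3 moves from 3.77 to 4.03 in controls to 29.9 to 32.0 at day 14, and S100g per 100 Slc12a3 is lower at day 14 than in controls.

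Markers of the cells that hold these genes, and of other cells, moved as well. The summed level of 10 thick ascending limb markers was 6564 to 7223 CPM in controls, 5263 to 5708 at day 5, 2286 to 2626 at day 14 and 3313, 5077 and 3409 at day 21. Of the 10, 9 fell at day 14 and 0 rose, where 28.8% of all genes fell. The 10 distal convoluted tubule markers summed to 1675 to 1922 CPM in controls, 1546 to 1675 at day 5, 730.4 to 840.2 at day 14 and 1043, 1562 and 917 at day 21, and 7 of them fell at day 14. The 10 markers of connecting tubule and collecting duct principal cells summed to 409.4 to 522.4 CPM in controls, 279.6 to 329.5 at day 5 and 447.1 to 582.9 at day 14. They reached 760.1, 536 and 1031 CPM at day 21, where 7 rose and 0 fell and 24.3% of all genes rose. Under library totals 8 and 5 of the first 2 lists still fell at day 14, where 11.2% of all genes fell, 0 and 2 rose, and 9 of the last rose at day 21, where 55.7% of all genes did. No marker of these 3 lists was at 0 in any library. The 10 proximal tubule markers summed to 9308 to 10210 CPM in controls, 1229 to 1362 at day 14 and 1545, 6850 and 1156 at day 21, and all 10 fell at day 14. The 10 macrophage and monocyte markers summed to 83.3 to 110.3 CPM in controls, 908.3 to 941 at day 14 and 518.7, 258.4 and 428.7 at day 21, and all 10 rose at day 14. Transcripts of the mitochondrial genome took 22.4 to 23.7% of counts in controls, 8.98 to 9.46% at day 14 and 11.8, 21.1 and 11.8% at day 21. In whole kidney RNA, fewer cells of a type and less RNA per cell cannot be told apart, and the part of such shifts in the changes of the 9 genes was not tested.

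Promoter sequence is shown for the 5 members called at day 21, as the 250 bases before the RefSeq start in GRCm38.p6, 5′ to 3′ on the gene's strand. RefSeq promoters were matched by symbol for 8 of the 9 members. Capitals mark TATAAA (the TATA box), AGGTCA (a nuclear receptor hexamer) or GGGCGG (a GC box), searched on both strands. The first 3 rose at day 21, Cldn19 being the member with 2 starts listed, of which the first is shown, and the other 2 fell.
Trpv5, chr6:41680724-41680973, minus strand: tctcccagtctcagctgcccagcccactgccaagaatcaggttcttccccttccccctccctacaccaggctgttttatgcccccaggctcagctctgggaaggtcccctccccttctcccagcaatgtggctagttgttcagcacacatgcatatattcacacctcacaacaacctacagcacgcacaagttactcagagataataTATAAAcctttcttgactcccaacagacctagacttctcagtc
Cldn16, chr16:26462885-26463134, plus strand: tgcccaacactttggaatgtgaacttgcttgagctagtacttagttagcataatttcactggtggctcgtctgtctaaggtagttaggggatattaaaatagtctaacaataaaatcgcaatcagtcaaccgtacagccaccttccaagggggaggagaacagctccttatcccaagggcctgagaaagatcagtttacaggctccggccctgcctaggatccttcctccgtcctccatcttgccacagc
Cldn19, chr4:119255191-119255440, plus strand: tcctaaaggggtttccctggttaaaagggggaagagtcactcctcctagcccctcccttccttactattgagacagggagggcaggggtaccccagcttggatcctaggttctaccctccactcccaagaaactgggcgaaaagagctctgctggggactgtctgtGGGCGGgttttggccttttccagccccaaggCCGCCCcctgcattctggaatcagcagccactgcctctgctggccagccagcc
S100g, chrX:162964600-162964849, minus strand: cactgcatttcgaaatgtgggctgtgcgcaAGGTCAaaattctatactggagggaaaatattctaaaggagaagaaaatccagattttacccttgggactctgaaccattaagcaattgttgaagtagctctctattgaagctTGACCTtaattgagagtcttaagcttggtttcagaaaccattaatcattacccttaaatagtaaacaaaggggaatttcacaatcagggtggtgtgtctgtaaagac
Casr, chr16:36562135-36562384, minus strand: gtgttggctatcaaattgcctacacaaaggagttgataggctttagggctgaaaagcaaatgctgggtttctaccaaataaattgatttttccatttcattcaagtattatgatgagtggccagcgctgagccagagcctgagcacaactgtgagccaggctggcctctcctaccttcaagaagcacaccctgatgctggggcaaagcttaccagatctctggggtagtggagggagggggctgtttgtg
TATAAA began 43 bases before the start of Trpv5 and was found in no other of the 5, against 12.4% of 32851 promoters of the same length. S100g held AGGTCA 220 bases before the start and, on the other strand, 107 bases before it, against 14% of promoters with any. Cldn19 held GGGCGG 84 bases before the start and, on the other strand, 53 bases before it, against 32.7%. An HNF1 half-site, GTTAAT, was searched as well and was found in 0 of the 5, against 6.43% of promoters. None of these motifs was found in the windows of Casr and Cldn16, and the claudins, which both rose, shared none.

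Other genes of calcium transport were taken from a list of 12, of which 9 were tested. At day 5, 3 rose and 0 fell, with a list median log2 fold change of 0.48, where 9.77% of all genes rose. The day-5 count was 0 without control replicate 2 or any of the day-5 libraries, 1 without control replicate 1 or 3, and 6 without day-21 replicate 2. At both day 14 and day 21, 6 rose and 1 fell, with medians of 0.69 and 0.51, where 31.2% and 24.3% of all genes rose. The day-21 count of 7 called fell to 4 without any 1 control and to 3 without day-21 replicate 3. In fits of only the 6 libraries compared, 1 gene of the list was called at day 21 and 7 at day 5. Without day-21 replicate 2, 6 rose and 2 fell at day 21 of 10 then tested, against 33.2% and 28.4% of all genes. Under library totals 1, 8 and 8 rose at the 3 days, where 9.68%, 66.4% and 55.7% of all genes rose. Atp2b1, a plasma membrane calcium pump, rose by 0.48 ± 0.12 at day 5 (adjusted p = 0.0205) and by 0.73 ± 0.12 at day 14 (adjusted p = 0.000447). Slc8b1, the mitochondrial sodium-calcium exchanger, rose by 0.53 ± 0.13, 0.78 ± 0.13 and 0.64 ± 0.13 at days 5, 14 and 21. The day-5 calls of both were lost under library totals (adjusted p = 0.0503 and 0.0573). Trpv6, the closest relative of Trpv5, rose by 2.96 ± 0.42 at day 21 (adjusted p = 0.00103), from 1.28 ± 0.06 CPM in controls (SD, n = 3) to 9.93 ± 5.71. Calm2, 1 of the calmodulin genes, rose by 0.51 ± 0.12 at day 21. Slc8a2, a further sodium-calcium exchanger, rose by 1.54 ± 0.44 at day 5 (adjusted p = 0.0391) at a level of only 0.11 ± 0.08 CPM in controls. At that level it passed the filter on low counts through toxin groups, and a fall could hardly have been called. Atp2b2, another pump of this family, fell by 1.87 ± 0.30 at day 14 (adjusted p = 0.000437).

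Of 19 other magnesium transport genes, none rose at any of the 3 days with all 12 libraries, while 1, 13 and 8 fell at days 5, 14 and 21, where 5.09%, 28.8% and 18.5% of all genes fell. The day-5 count was 0 without control replicate 1 or day-5 replicate 2 or 3. The counts of this list depend on the scaling. Under library totals 0, 5 and 3 rose, where 9.68%, 66.4% and 55.7% of all genes rose. Then 1, 3 and 2 fell, where 2.78%, 11.2% and 7.38% of all genes fell. The medians were -0.10, -0.61 and -0.46, and 0.04, 0.12 and -0.02 under library totals. The all-gene medians under library totals were 0.147, 0.805 and 0.552, above those of the list at each day. At day 5 Fxyd2 (-0.29 ± 0.16) and Nipa1 (-0.23 ± 0.14) did not pass. At day 14 Egf, a growth factor made in the distal tubule that stimulates Trpm6, fell by 6.0 ± 0.99 (adjusted p = 0.000472). Fxyd2, the gamma subunit of the sodium pump, fell by 1.52 ± 0.17 at day 14 (adjusted p = 4.87e-05) and by 0.67 ± 0.16 at day 21 (adjusted p = 0.0102). Trpm7, the channel related to Trpm6, fell by 0.81 ± 0.12 at day 14 and by 0.62 ± 0.12 at day 21, values that were -0.08 and -0.17 under library totals and did not pass. Kcnj16, a basolateral potassium channel subunit, fell by 0.63 ± 0.16 at day 21 (adjusted p = 0.0113). Under library totals the day-21 calls of Fxyd2 and Kcnj16 were lost, while Egf and Fxyd2 at day 14 kept theirs. Without day-21 replicate 2 the number that fell was 4, 13 and 11, against 14.9%, 30.9% and 28.4% of all genes. The day-21 count was 5 without any 1 control, 4 without day-21 replicate 1, 3 without day-21 replicate 3 and 0 in a fit of only the 6 libraries compared.

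The 8 other tubule claudins were tested. At day 5, 0 rose and 1 fell, at day 14, 4 rose and 3 fell, and at day 21, 5 rose and 2 fell, with medians of 0.27, 1.01 and 1.28. The shares of all genes were 9.77%, 31.2% and 24.3% for rises and 5.09%, 28.8% and 18.5% for falls. The 7 claudins called at day 21 became 4 without day-21 replicate 1 or 3. In fits of only the 6 libraries compared, 2 claudins were called at day 21 and 3 at day 5. Without day-21 replicate 2, 5 rose and 3 fell at day 21, against 33.2% and 28.4% of all genes. Under library totals 0, 5 and 5 rose, where 9.68%, 66.4% and 55.7% of all genes rose. Then 1, 1 and 0 fell, where 2.78%, 11.2% and 7.38% of all genes fell. Without day-21 replicate 2 the day-5 count was 4 and 1, against 17.4% and 14.9% of all genes. Cldn12, the claudin that fell at day 5, had a log2 fold change of -0.50 ± 0.14 (adjusted p = 0.0347), and of -0.85 ± 0.14 at day 14, where it was -0.12 under library totals. No claudin was called at day 5 without control replicate 2 or 3, day-5 replicate 2 or 3 or any 1 day-14 library. Cldn8 at 0.21 ± 0.09 and Cldn14 at 2.00 ± 0.91, the latter near 0 in controls, did not pass at day 5. Cldn14 is counted among the rises at days 14 and 21. It had 1, 1 and 2 counts in controls and 19, 21 and 14 at day 14. It passed the filter on low counts only through toxin groups, so it could not have been called as falling. Cldn4, which makes a chloride-selective pore of the collecting duct, rose by 2.92 ± 0.41 at day 14 (adjusted p = 0.000201) and by 2.77 ± 0.41 at day 21 (adjusted p = 0.00125). Cldn7 rose by 2.25 ± 0.37 and 2.27 ± 0.37 on those days, and Cldn3, a barrier-forming claudin, rose by 2.58 ± 0.53 at day 21 (adjusted p = 0.0048).

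Of 9 genes of the hormone system that regulates calcium, 1 rose and 1 fell at day 5, 3 rose and 4 fell at day 14, and 3 rose and 5 fell at day 21. These counts stand beside 9.77%, 31.2% and 24.3% of all genes that rose and 5.09%, 28.8% and 18.5% that fell. The 8 called at day 21 became 4 or 5 without any 1 control and 4 without day-21 replicate 1 or 3. The 2 at day 5 became 1 without any 1 control or day-5 library. In fits of only the 6 libraries compared, 1 was called at day 21 and 4 at day 5. Without day-21 replicate 2, 3 rose and 5 fell at day 21, against 33.2% and 28.4% of all genes. The medians were -0.01, -0.66 and -0.46, and 0.14, 0.07 and -0.02 under library totals, where the all-gene medians were 0.147, 0.805 and 0.552. Cyp27b1, the enzyme that makes active vitamin D, rose by 2.12 ± 0.42 at day 5 (adjusted p = 0.00704), by 3.30 ± 0.44 at day 14 (adjusted p = 0.000137) and by 2.90 ± 0.43 at day 21 (adjusted p = 0.00126). Vdr, the receptor of active vitamin D, fell by 0.59 ± 0.15, 0.87 ± 0.15 and 0.79 ± 0.15 on the same days, and the day-14 value was -0.14 under library totals and did not pass. Rxra, the partner with which Vdr binds DNA, fell by 0.75 ± 0.15 at day 14 (adjusted p = 0.00139), and was at -0.02 under library totals. Fgfr1, a receptor for FGF23, was at -0.22 ± 0.11 at day 5 and did not pass. Calcr, the calcitonin receptor, rose by 3.52 ± 0.68 at day 21 (adjusted p = 0.00392), from 0.43 ± 0.18 CPM in controls (SD, n = 3) to 4.88 ± 3.61. Its counts were 8, 15 and 19 in controls and 305, 23 and 277 at day 21. Day-21 replicate 2, at 0.74 CPM, thus lay near the highest control at 0.59. Pth2r is counted among the rises at days 14 and 21, with 5.13 and 3.97 under library totals. It was at or near 0 in controls, so a fall of it could hardly have been called. The controls of these 4 lists are those of the 9 genes, and the all-gene medians above apply to them.

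**Figure D4:**
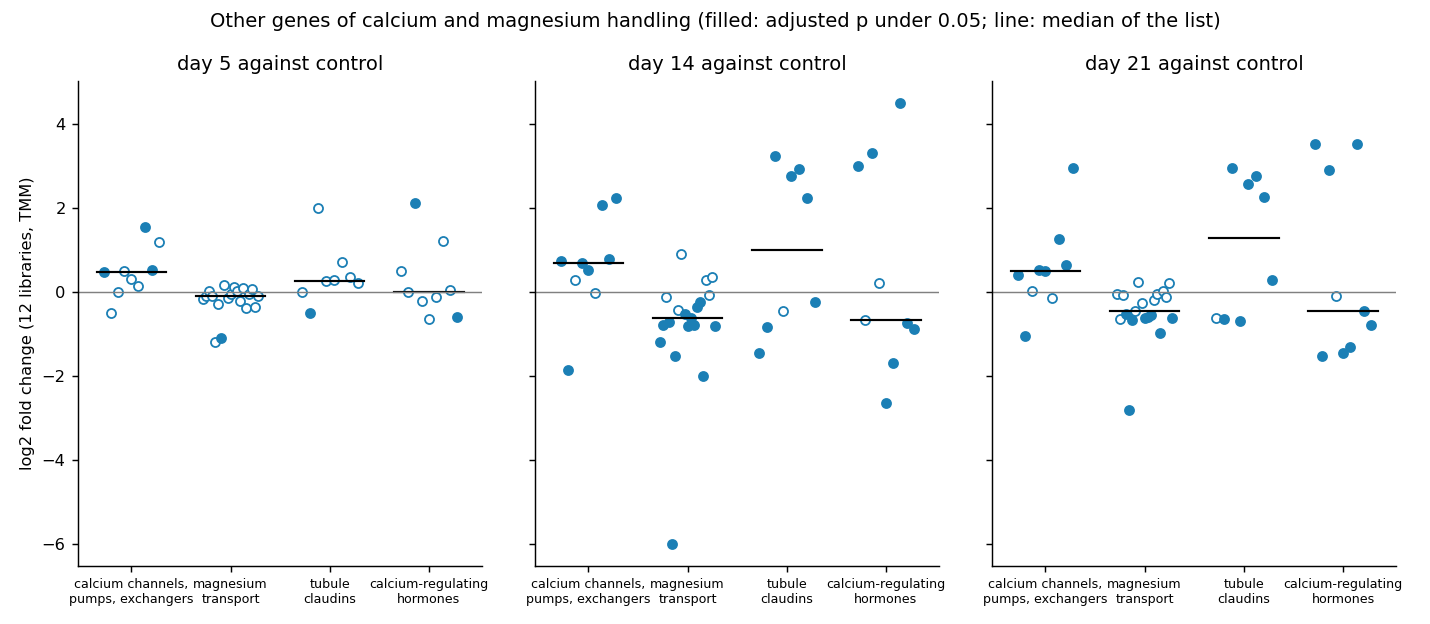
Log2 fold changes against control (y axis, TMM-scaled, all 12 libraries) of other genes of calcium transport, magnesium transport, tubule claudins and calcium-regulating hormones at days 5, 14 and 21; each point is 1 gene, filled where its adjusted p was under 0.05, and lines are list medians. Magnesium transport genes lie mostly below 0 at day 14, with a median of -0.61. It becomes 0.12 under library totals, where the all-gene median is 0.805. The claudin median is 1.01.

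The genes whose log2 CPM followed each member most closely over the 12 libraries are given as a description. Pearson's r was 0.989 for Trpv5 with Dtx2, 0.977 with Mal2 and 0.976 with 0610040J01Rik. It was 0.974 for Calb1 with Ptger3, 0.971 with Spa17 and 0.968 with Ninl, and for Slc8a1 it was 0.959 with Arhgef18, 0.941 with Insig1 and 0.930 with Nol3. S100g followed Uqcr10 at 0.991, Coq7 at 0.987 and Slc25a5 at 0.986. For Trpm6 the values were lowest of the 9, at 0.9 with 1810024B03Rik, 0.895 with Gm13262 and 0.894 with Zfp958. Casr lay closest to Phc1 at 0.980, Nat8 at 0.974 and Ift52 at 0.972. Cldn16 lay closest to Tmem30b at 0.990 and Rtf1 at 0.981, and Cldn19 to Pkm at 0.973, Stk39 at 0.963 and Dmrt2 at 0.958. Pvalb lay closest to Tsku, Miga2 and Ctsh, each at 0.948. The 12 points fall into groups and share scaling factors, and Ptger3 and Stk39 are on the marker lists of the thick ascending limb and the distal convoluted tubule.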

How the data were processed

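The deposited file is a table of raw gene counts, with an identifier, a symbol, coordinates and a length for each gene. Per the submitters' processing notes, fastp 0.20.0 and featureCounts were used with GRCm39. Aligner, annotation and strand setting are not given in the sources used. RNA came from whole kidney and was poly(A)-selected, per the labels' protocols. Columns were matched to samples by library name, and groups came from titles.

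Genes kept by filterByExpr were tested with edgeR 4.0.16 (quasi-likelihood, TMM factors, limma 3.58.1, R 4.3.3) on all 12 libraries, without a replicate block. P-values were adjusted by Benjamini-Hochberg over 19821 genes, or 20694 without day-21 replicate 2. The standard error is the size of the log2 fold change over the root of its F statistic. Levels per kilobase used the deposited Length column. Likeness used log2 CPM with a prior count of 2, among tested genes with a symbol and a mean of at least 1. From each of the 4 pathway lists, up to 3 genes with the smallest adjusted p per comparison with control were named. Pth2r was named outside this rule, for its low level in controls. A few genes that the naming rules select are not reported here. Members and lists were chosen with earlier results of these data known. The fitting script was run on simulated counts as a check of its code only. Alternatives were DESeq2 1.42.0, limma-voom, other scalings and filters, a replicate block, 6-library fits and leaving out each library. Summing day-14 replicates 1 and 2 as 1 library was added after seeing the data. Deviations of same-numbered libraries had correlations of -0.14 to 0.171, and those of differently numbered ones -0.18 to 0.202. No pairing by number was thus seen, which cannot show that the samples were unpaired.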

Additional observations from a re-analysis of the deposited data

Results flagged for a closer look

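Members whose change differed between days are listed here because the difference itself passed the edgeR test. Day 14 differed from day 5 by a log2 value of 0.963 for Trpv5, -0.72 for Calb1, -2.35 for S100g, 0.608 for Slc8a1, -0.651 for Casr and 0.552 for Cldn19. Day 21 differed from day 14 by 1.21 for Calb1, 2.02 for S100g, 0.439 for Slc8a1, 0.322 for Casr and 0.844 for Cldn19. Day-21 replicate 2 stood nearest to the controls of the day-21 libraries in 8 of the 9 genes, Casr being the exception.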

How the results depend on the processing

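Over 945 member fold changes under alternatives, 841 kept direction and side of the threshold, 66 lost the call, 29 gained it and 9 changed sign. Library totals gave 2 called members at day 5, 3 at day 21 and 2 for day 21 against day 14. They turned Slc8a1 to 0.0466 at day 14 and 0.214 at day 21, Calb1 to 0.0579 and Trpm6 to 0.121 at day 21, Trpm6 to 0.345 for day 14 against day 5 and Trpv5 to -0.0365 for day 21 against day 14. Fits of only the 6 libraries compared called 7, 3 and 1 members at day 5, day 21 and day 21 against day 14, and 6982, 1631 and 263 genes, against 2945, 8490 and 2893. With limma-voom Pvalb was -1.41 for day 21 against day 14. Leaving out 1 library at a time gave 2 to 6 members and 1570 to 6691 genes at day 5, 4 to 8 members and 4918 to 12738 genes at day 21, and 3 to 6 members and 852 to 4951 genes for day 21 against day 14. It moved Cldn16 at day 5 from -0.0141 to 0.074 and Pvalb for day 21 against day 14 from -6.42 to 2.46. The cause was not tested.

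Day-14 replicates 1 and 2 summed as 1 library, an alternative chosen after seeing the data, gave 924 genes for day 21 against day 14. It ended the calls of Trpm6 at day 5 (-0.812, adjusted p = 0.0722), S100g at day 21 (-0.596, adjusted p = 0.0643), Calb1 for day 14 against day 5 (-0.691, adjusted p = 0.0595) and Slc8a1 for day 21 against day 14 (0.402, adjusted p = 0.155), and no other member call. With the replicate block, calls of Trpm6 at day 5 (-0.787, adjusted p = 0.0533), S100g at day 21 (-0.622, adjusted p = 0.0535) and Slc8a1 for day 21 against day 14 (0.434, adjusted p = 0.0732) were lost, and Pvalb at day 14 (-4.37, adjusted p = 0.0381) passed. It changed no other member call. Counts of 0 to 128 for Pvalb in toxin libraries other than day-21 replicate 2 limit its precision.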
